A study of Mus musculus with 9 samples.

Results

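Integrin chains that bind laminin, fibronectin or the RGD peptide motif were followed by their mRNA in a mouse pancreatic cancer cell line, its CD49b knockout counterpart and the tumours grown from each. The 9 genes, Itga3, Itga6, Itgb4, Itga5, Itgav, Itgb3, Itgb5, Itgb6 and Itgb8, were taken by symbol from the 49671 genes of the count tables, and all 9 were found. The line with intact CD49b is labelled KPCWT (WT below) and the knockout line KPC49bKO (KO below). CD49b is the integrin alpha 2 chain, encoded by Itga2, which pairs with beta 1 to bind collagen. Both lines were kept in DMEM with fetal bovine serum and taken near confluence (2 WT and 2 KO culture libraries), or implanted under the skin of syngeneic C57BL/6 mice, grown to tumours and dissociated with enzymes (3 WT and 2 KO tumour libraries). No age or sex of the mice is labelled. Each genotype is 1 line, so the knockout and any other difference between these lines cannot be told apart. The tumour libraries hold RNA of host cells as well as cancer cells.

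Integrins are pairs of an alpha and a beta chain that anchor cells to the extracellular matrix and signal through their cytoplasmic tails. The alpha 3 and alpha 6 chains with beta 1, and alpha 6 with beta 4, bind laminins of the basement membrane, and the pair of alpha 6 and beta 4 also builds hemidesmosomes, which tie keratin filaments to that membrane. The alpha 5 chain with beta 1 is the classical fibronectin receptor, while alpha v with beta 3, beta 5, beta 6 or beta 8 recognises the RGD motif in fibronectin, vitronectin and osteopontin, and the beta 6 and beta 8 pairs release active TGF-beta from its latent complex.

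Total counts per library ran from 16032912 to 21247023. Itga2, the targeted gene, reached 150 and 110 CPM (counts per 1000000 counts of the library) in WT cultures, 142, 168 and 164 in WT tumours, 81.7 and 82.0 in KO cultures, and 47.6 and 72.9 in KO tumours. Its log2 fold change in KO was -0.64 (adjusted p = 0.0135, edgeR) in culture and -1.32 (adjusted p = 0.00602) in tumours. The culture call was lost in 3 of 12 alternatives, among them those without WT culture 1 or KO culture 1. Itga2 mRNA was still counted in every KO library. The position of the edit in Itga2 is not given in the sources used here. Among the WT tumours, 1 and 2 were closer to each other (chi-square per gene 6.55) than any other pair of replicates (25.2 to 43.9). That closeness enters the spread behind every tumour p-value. KO against WT in tumours called 3206 genes with all libraries. Without WT tumour 1 it called 1258, without WT tumour 2 1171, and without WT tumour 3 2732. Why these 2 tumours were close was not tested. The label of pancreatic cancer cells was checked against 7 epithelial markers, whose summed CPM was 7686 to 8539 in all cultures, 5071 to 6543 in WT tumours and 8362 to 9771 in KO tumours. Krt8 ran from 1670 to 2257 CPM in WT and from 3346 to 3821 CPM in KO tumours, so that the tumour groups did not overlap in either measure. Epcam was near 0 in culture, with 3.16 and 2.83 CPM in WT libraries and 0 and 0.0548 CPM in KO libraries. The acinar and islet markers summed to 5.29 to 41.1 CPM, nearly all of it from Cela1, with Ins1, Ins2 and Gcg at 0 in all libraries.

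In these data the laminin receptor genes Itga3 and Itgb4 were lower in KO than in WT both in culture and in tumours, whereas Itga6 differed by less than its spread in either. Itga5 was lower in the KO tumours, at 0.261 times the mean WT level, and its difference in tumours was larger than in culture. Among the chains that pair with alpha v, Itgb5 was lower and Itgb6 higher in the KO tumours, and Itgav itself was called in neither setting. The genome windows before the start of 4 of the members are shown because Itga3, Itga5 and Itgb5 were lower in the KO tumours while Itgav was not. The set of RefSeq promoter windows (GRCm38.p6) used here held 6 of the 9 members. It had no entry for Itga6, Itgb3 or Itgb4, the last of which was also lower in the KO tumours. The windows come from there and run 5′ to 3′ on the strand of the gene. Each covers the 250 bases before the start, cut in Itga3 to 163 bases at the first annotated exon. Capitals mark GGGCGG or its reverse complement, the GC box.
Itga3, chr11:95076802-95076964, minus strand: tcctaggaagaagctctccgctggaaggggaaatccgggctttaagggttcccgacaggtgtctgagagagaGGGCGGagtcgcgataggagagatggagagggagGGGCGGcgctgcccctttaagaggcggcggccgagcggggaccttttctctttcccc
Itga5, chr15:103366792-103367041, minus strand: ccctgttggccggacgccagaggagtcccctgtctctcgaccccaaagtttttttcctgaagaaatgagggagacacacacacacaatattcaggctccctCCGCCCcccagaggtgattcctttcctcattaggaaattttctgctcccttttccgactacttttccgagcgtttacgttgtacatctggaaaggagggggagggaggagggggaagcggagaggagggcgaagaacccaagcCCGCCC
Itgb5, chr16:33829415-33829664, plus strand: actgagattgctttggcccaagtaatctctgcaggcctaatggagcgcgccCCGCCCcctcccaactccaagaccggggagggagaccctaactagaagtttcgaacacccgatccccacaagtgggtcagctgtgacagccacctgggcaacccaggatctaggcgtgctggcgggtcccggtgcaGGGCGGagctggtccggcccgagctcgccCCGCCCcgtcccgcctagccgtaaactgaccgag
Itgav, chr2:83724147-83724396, plus strand: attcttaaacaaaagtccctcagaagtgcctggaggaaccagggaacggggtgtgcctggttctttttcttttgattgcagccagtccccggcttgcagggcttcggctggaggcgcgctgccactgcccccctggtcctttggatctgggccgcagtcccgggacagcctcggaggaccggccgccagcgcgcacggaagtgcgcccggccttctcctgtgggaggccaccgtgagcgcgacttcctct

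In the full 250 bases the GC box was found 3 times in Itga3, of which 2 lie in the stretch printed. It was found 2 times in Itga5 and 3 times in Itgb5, and not in Itgav or Itgb6. Of the Itgb6 window, 210 bases lie before the first annotated exon. The Itgb8 window lies inside the annotated gene and was not used. The GC box was present in 32.7% of the 32851 windows of the same length in the table. The AP-1 motif TGANTCA (in 6.75% of all windows) and the TEAD motif GGAATG (in 12.6%), both searched on both strands, were in none of these 5 windows. GC boxes did not overlap with the other motifs, which were absent, and a match is a description of the sequence only. The windows shown were chosen by the difference in KO tumours, so a link between motif and direction was not tested. The share of G and C was 67.6% in Itga3, 65.2% in Itgb5, 64.4% in Itgav, 55.6% in Itga5 and 52.0% in Itgb6, beside a median of 52.4% over all windows.

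Itga3 (ENSMUSG00000001507, GRCm38 chromosome 11, 95044474 to 95076801) encodes alpha 3, a receptor chain for laminins that carry alpha 3 or alpha 5 chains. It had 395 and 298 CPM in WT cultures and 231 and 192 in KO cultures. In tumours it was at 468, 486 and 540 CPM in WT and 205 and 217 in KO. The KO libraries were below every WT library in both settings. The log2 fold change of KO over WT was -0.69 (SE 0.17, adjusted p = 0.0107, edgeR's quasi-likelihood test with Benjamini-Hochberg adjustment over all genes) in culture and -1.15 (SE 0.12, adjusted p = 0.00297, edgeR) in tumours. In culture the gene was no longer called without WT culture 1 (adjusted p = 0.112, edgeR) or without KO culture 2 (0.127), and the call in tumours was kept under all 13 alternatives run. The difference between the effects, -0.48 (SE 0.20, adjusted p = 0.198, edgeR), was not called.

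Itgb4 (ENSMUSG00000020758, chromosome 11, 115974709 to 116008412) encodes beta 4, which pairs only with alpha 6 and links to plectin in hemidesmosomes. Its level was low in culture, at 32.6 and 23.1 CPM in WT and 19.2 and 14.3 in KO. In tumours it reached 356, 335 and 288 CPM in WT and 180 and 127 in KO. KO lay below WT without overlap in both settings, with a log2 fold change of -0.71 (SE 0.20, adjusted p = 0.0227, edgeR) in culture and -0.98 (SE 0.21, adjusted p = 0.0236) in tumours. In culture this call went without WT culture 1 (adjusted p = 0.195, edgeR), without KO culture 2 (0.129) and in 1 fit of all 9 libraries (0.0681), and the tumour call without WT tumour 1 (0.0692) or 2 (0.0748). An RNA gene on the opposite strand, B230344G16Rik, shares 7.66% of the exon bases of Itgb4, and its own count was at most 2.94% of that of Itgb4.

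Itga6 (ENSMUSG00000027111, chromosome 2, 71745616 to 71858416), the partner chain of beta 4, had 288 and 235 CPM in WT cultures and 280 and 254 in KO cultures. The tumours had 412, 382 and 400 CPM in WT and 356 and 470 in KO. The groups overlapped in both settings, with log2 fold changes of 0.05 (SE 0.16) and 0.14 (SE 0.13), neither called. Per kilobase of exon, the ratio of Itgb4 to Itga6 was lower in the KO than in the WT libraries of each setting. Its log2 was -2.88 ± 0.14 (SD, n = 2) in WT and -3.64 ± 0.20 (n = 2) in KO cultures, and 0.07 ± 0.16 (n = 3) in WT and -1.07 ± 0.64 (n = 2) in KO tumours. The groups did not overlap in either setting, with an exact 2-sided permutation p = 0.333 in culture and 0.2 in tumours, the smallest these group sizes allow. The KO tumours were themselves far apart, at -0.62 and -1.53. The log2 ratio of Itga3 to Itga6 was 1.06 ± 0.08 in WT and 0.32 ± 0.09 in KO cultures (SD, n = 2 each, exact permutation p = 0.333), and 0.98 ± 0.13 (n = 3) in WT and -0.29 ± 0.23 (n = 2) in KO tumours (exact permutation p = 0.2). Itga3 was thus above Itga6 in every WT library and below it in both KO tumours. With the length of the longest transcript in place of all exons, Itga6 was above Itga3 in KO culture as well.

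**Figure D1:**
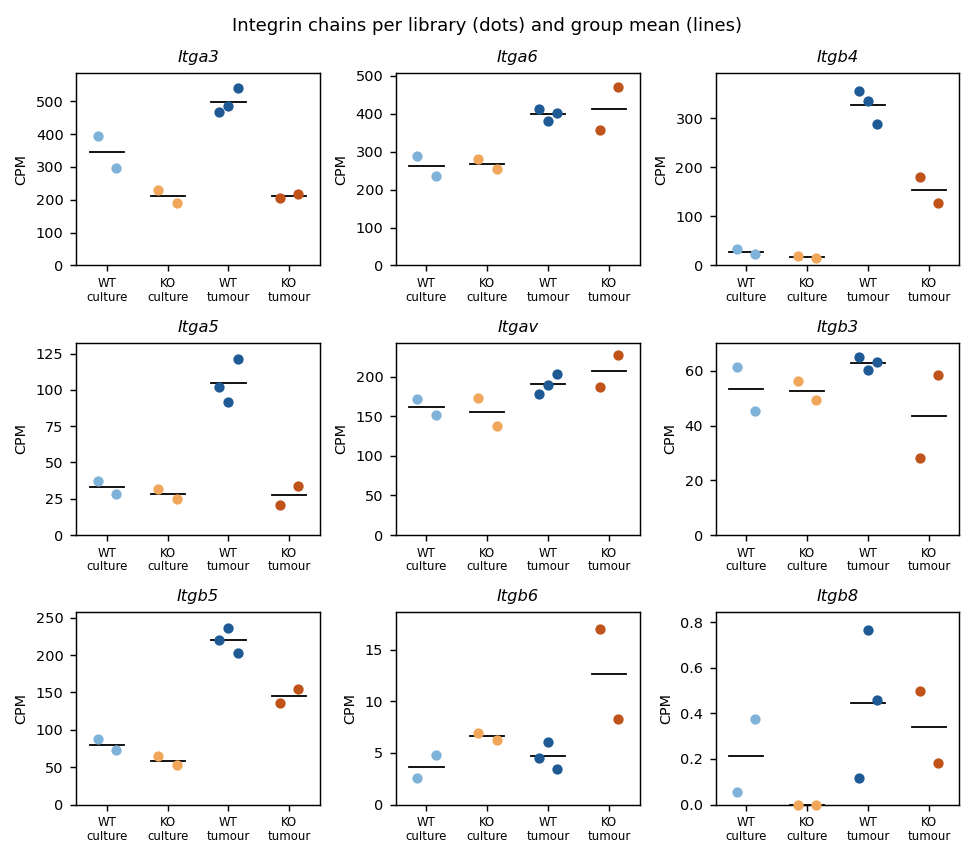
CPM (linear axes from 0) of the 9 integrin chains, 1 dot per library, with the group mean as a line. Itga3, Itgb4, Itga5 and Itgb5 lie lower in the KO tumours than in every WT tumour, as does Itgb3 by a smaller margin, Itgb6 lies higher, and Itgb8 is below 1 CPM throughout.

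Itga5 (ENSMUSG00000000555, chromosome 15, 103344286 to 103366763), the alpha chain of the fibronectin receptor, had 37.2 and 28.4 CPM in WT cultures and 31.7 and 24.9 in KO cultures, which overlap. In tumours it was at 102, 91.8 and 121 CPM in WT and 20.8 and 34.0 in KO. All WT tumours were above all other libraries, and the KO tumours were within the range of the cultures but for 1 lower value. The log2 fold change was -0.19 (SE 0.18, adjusted p = 0.499, edgeR) in culture and -1.86 (SE 0.21, adjusted p = 0.0037, edgeR) in tumours, where the call was kept under all 13 alternatives. Itga5 alone of the 8 members tested had a called difference between the effects, -1.69 (SE 0.29, adjusted p = 0.00862, edgeR), beside 5.69% of the 16793 genes tested (1.54% lower and 4.15% higher). That call was lost without WT culture 2 (adjusted p = 0.0581, edgeR) or KO culture 1 (0.055).

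Itgb1, which pairs with alpha 3, alpha 5, alpha 6 and alpha v and is no member of the set, was at 874 and 845 CPM in WT and 614 and 681 in KO cultures, and at 1028, 979 and 994 in WT and 659 and 630 in KO tumours. Its log2 fold change was -0.38 (SE 0.18, adjusted p = 0.139, edgeR) in culture and -0.54 (SE 0.12, adjusted p = 0.0266) in tumours. The tumour call was lost in 4 of 13 alternatives, among them those without KO tumour 3, WT tumour 1 (adjusted p = 0.104, edgeR) or 2 (0.1). Per kilobase, the log2 ratio of Itga5 to Itgb1 was -3.54 ± 0.20 (SD, n = 3) in WT and -4.87 ± 0.54 (n = 2) in KO tumours, which did not overlap (exact permutation p = 0.2). In culture it was -5.00 ± 0.24 in WT and -4.80 ± 0.35 in KO (n = 2 each, exact permutation p = 0.667), with overlap.

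Markers of cell types were set beside these tumour values. The summed CPM of the 7 epithelial markers, given above, was higher in both KO tumours than in every WT tumour. The single markers went both ways, with 2 called higher and 2 lower in KO tumours. Epcam was at 80.5 to 183 CPM in WT and 36.6 to 46.6 in KO tumours, and Sox9 at 129 to 206 and 32.6 to 44.3. The 8 fibroblast markers were all counted in every tumour, with a summed CPM of 1284 to 3590 in WT and 429 to 730 in KO, and of at most 2.31 in the cultures. Endothelial markers (8 of 8 in every tumour) summed to 86.6 to 217 CPM in WT and 50.2 to 110 in KO tumours. For pericyte and smooth muscle markers (6 of 6) the sums were 130 to 230 and 117 to 156. Macrophage and monocyte markers (8 of 8) summed to 279 to 471 and 311 to 497. That list also summed to 185 to 192 CPM in WT and 164 to 166 in KO cultures. Most of it there was Mrc1, at 182 to 190 and 156 to 158 CPM. The T and NK cell markers (5 or 6 of 6) summed to 4.24 to 17.4 CPM in WT and 19.96 to 47.9 in KO tumours and were at 0 in culture. Skeletal muscle and adipocyte markers summed to 13.8 to 109 CPM in WT and 8.55 to 38.4 in KO tumours, and neutrophil markers to 4.64 to 64.1 and 5.99 to 14.1. Platelet and megakaryocyte markers summed to 8.24 to 13.96 CPM in WT and 4.24 to 4.98 in KO tumours. Keratinocyte markers summed to 174 to 201 in WT and 70.0 to 186 in KO tumours, and to 104 to 108 in WT and 117 to 119 in KO cultures. Most of the culture sum was Krt14, at 94.6 to 95.1 CPM in WT and 111 to 114 in KO. Mitochondrial genes took 1.90% to 2.00% of counts in WT and 2.69% to 3.33% in KO tumours, and 3.39% to 4.72% in WT and 2.05% to 2.16% in KO cultures. The part of these cells and of RNA quality in the tumour differences of Itga3, Itgb4, Itga5, Itgb5 and Itgb6 was not tested. In such bulk RNA, fewer cells of a type and less RNA per cell cannot be told apart. In culture the KO libraries lay below the WT libraries for Itga3, Itgb4 and Itgb5 and above them for Itgb6. For Itga5 the culture groups overlapped. Itgb5 and Itgb6 were not called in culture, where the groups did not overlap for 59.7% of all genes tested.

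Itgav (ENSMUSG00000027087, chromosome 2, 83724397 to 83806916), the alpha chain shared by the RGD receptors of this set, had similar levels in all 4 groups. It was at 171 and 152 CPM in WT and 173 and 137 in KO cultures, and at 178, 190 and 203 in WT and 187 and 227 in KO tumours. The groups overlapped in both settings. The log2 fold change was -0.04 (SE 0.16) in culture and 0.20 (SE 0.12) in tumours, neither called. Gm13684, on the opposite strand, shares 5.90% of the exon bases of Itgav, and its count was at most 0.879% of that of Itgav.

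Itgb5 (ENSMUSG00000022817, chromosome 16, 33829665 to 33949338), whose pair with alpha v binds vitronectin, was at 87.8 and 72.7 CPM in WT and 64.5 and 52.4 in KO cultures. In tumours it was at 220, 236 and 203 CPM in WT and 136 and 154 in KO. KO lay below WT without overlap in both settings, with log2 fold changes of -0.43 (SE 0.16, adjusted p = 0.0706, edgeR) in culture, not called, and -0.51 (SE 0.12, adjusted p = 0.0322) in tumours. The tumour call was lost whenever WT tumour 1 (adjusted p = 0.114, edgeR), WT tumour 2 (0.13), KO tumour 1 (0.0966) or KO tumour 3 (0.0508) was left out. The sizes stayed between -0.60 and -0.45 under all 13 alternatives.

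Itgb6 (ENSMUSG00000026971, chromosome 2, 60598292 to 60722643) encodes beta 6, an epithelial chain that with alpha v activates latent TGF-beta. It was low, at 2.59 and 4.76 CPM in WT and 6.97 and 6.25 in KO cultures. In tumours it was at 4.52, 6.07 and 3.42 CPM in WT and 17.0 and 8.30 in KO. KO was above WT in each setting, and KO tumour 1 stood above all other libraries. The log2 fold change was 0.85 (SE 0.31, adjusted p = 0.0603, edgeR) in culture, not called, and 1.55 (SE 0.41, adjusted p = 0.0436) in tumours. Without KO tumour 1 the tumour value was 0.87 (adjusted p = 0.202, edgeR), the call was also lost without WT tumour 1 (0.133), 2 (0.081) or 3 (0.104) and with limma-voom (0.0606), and without WT culture 2 the culture value was 1.42 (adjusted p = 0.00312, edgeR).

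Itgb3 (ENSMUSG00000020689, chromosome 11, 104608000 to 104670476), whose pair with alpha v binds many RGD ligands, was at 61.5 and 45.4 CPM in WT and 56.2 and 49.2 in KO cultures. The tumours had 65.1, 60.2 and 63.2 CPM in WT, and 28.3 and 58.4 in KO. The KO tumours were below every WT tumour, 1 of them narrowly, and far apart, while the cultures overlapped. The log2 fold change was 0.01 (SE 0.17) in culture and -0.47 (SE 0.25, adjusted p = 0.237, edgeR) in tumours, and neither was called. Without KO tumour 3 the tumour value was -0.99 (adjusted p = 0.0071, edgeR).

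Itgb8 (ENSMUSG00000025321, chromosome 12, 119158022 to 119238802), the other TGF-beta activating beta chain, was too low to test. It had 1 and 7 counts in the WT cultures, none in the KO cultures, 2, 13 and 9 in the WT tumours and 8 and 3 in the KO tumours. A count of 0 over both KO cultures allows up to 0.0760 CPM (3 counts, counting error only), beside 0.220 CPM over both WT cultures. No difference was detectable at this depth in tumours.

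**Figure D2:**
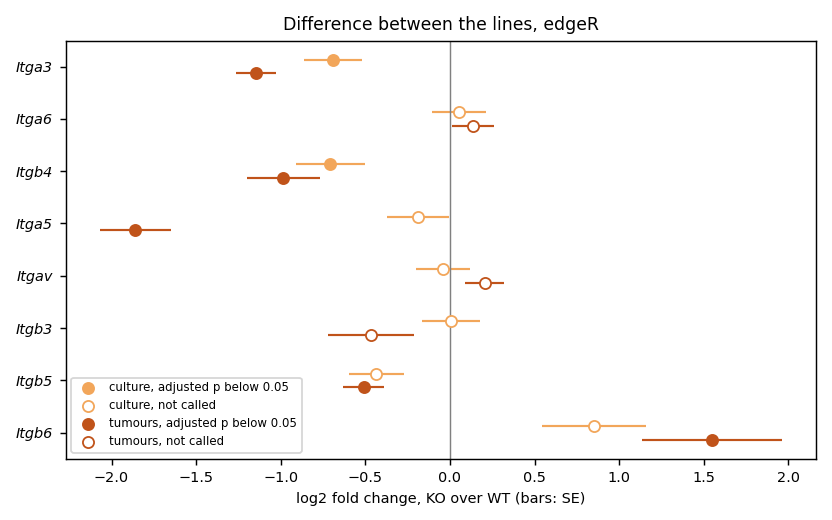
Log2 fold change of KO over WT (horizontal axis) for the 8 members tested, with the SE as bars, in culture (light) and tumours (dark). Filled points passed an adjusted p of 0.05 in edgeR: Itga3 and Itgb4 in culture, and these with Itga5, Itgb5 and Itgb6 in tumours.

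In culture 2 of the 8 members tested were called, both lower, beside 25.5% of the 13573 genes tested (16.2% lower and 9.27% higher), so the members' count was near the background. In tumours 5 of 8 were called, 4 lower and 1 higher, beside 19.7% of 16257 genes (10.9% lower and 8.78% higher). The median log2 fold change of the members was -0.11 in culture and -0.49 in tumours, while that of all genes was -0.0003 and -0.0056. Groups did not overlap in CPM for 4 of the 8 members in culture (59.7% of all genes tested) and for 6 of 8 in tumours (53.3%). Leaving out 1 library at a time, from 0 to 3 members were called in culture, with 0 without WT culture 1, and from 2 to 5 in tumours, with 2 without WT tumour 1 or 2.

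Per kilobase of exon, the order of the members could be read within each group. In WT cultures Itga3 was highest at 60.7 ± 12.0 CPM per kilobase (SD, n = 2), followed by Itga6 at 29.0, Itgb5 at 22.6, Itgav at 15.05, Itgb3 at 9.06, Itga5 at 6.65, Itgb4 at 3.97, Itgb6 at 0.517 and Itgb8 at 0.0195. No neighbours overlapped in their libraries there. In WT tumours Itga3 led again at 87.2 ± 6.602 (n = 3), then Itgb5 at 61.8, Itgb4 at 46.5, Itga6 at 44.1, Itga5 at 21.3, Itgav at 17.7 and Itgb3 at 10.7. Itgb4 overlapped with Itga6, and Itga5 with Itgav. With the longest transcript as length, the WT tumour order was Itga3, Itga6, Itgb5, Itgb4, Itgav and Itga5. In KO tumours Itga6 at 45.8 ± 8.99 (n = 2) and Itgb5 at 40.9 ± 3.57 overlapped at the top, above Itga3 at 37.0 ± 1.41. There Itgb4 (21.9) overlapped with Itgav (19.2) and Itgb3 (7.35) with Itga5 (5.55), and Itgb6 was at 1.78, and with the longest transcript Itgav came before Itgb4. In KO cultures Itga3 at 37.0 ± 4.91 (n = 2) was above Itga6 at 29.6 ± 1.99, and Itgb5 (16.4) overlapped with Itgav (14.4). Both orders turn with the longest transcript as length. Itgb1 exceeded every member, at 211 in WT and 159 in KO cultures and at 245 in WT and 158 in KO tumours.

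The 4 beta chains of the alpha v receptors were set against each other as shares of their summed counts per kilobase. Itgb1 was left out because it pairs with many alpha chains. Itgb5 made up 70.3% ± 0.91 (SD, n = 2) in WT and 62.4% ± 1.31 (n = 2) in KO cultures, and 84.4% ± 1.07 (n = 3) in WT and 81.9% ± 3.18 (n = 2) in KO tumours. Itgb3 made up 28.01% ± 1.90 and 34.0% ± 1.13 in culture and 14.6% ± 1.29 and 14.3% ± 5.42 in tumours. The culture groups did not overlap for either chain (exact permutation p = 0.333, the smallest 2 against 2 allow), and the tumour groups did. The share of Itgb6 was 1.03% and 2.32% in WT and 3.42% and 3.67% in KO cultures, and 0.864%, 1.10% and 0.704% in WT and 5.25% and 2.14% in KO tumours, without overlap in either setting (exact permutation p = 0.333 and 0.2, the smallest possible).

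**Figure D3:**
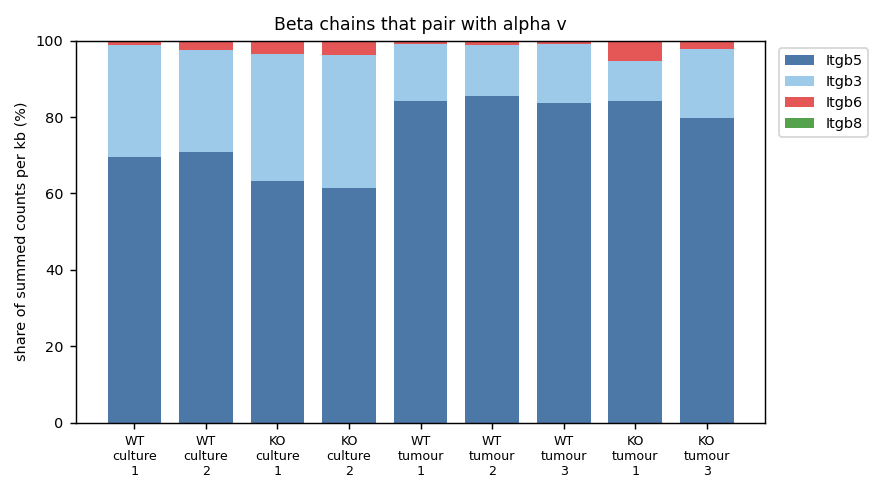
Share of each beta chain (percent of the summed counts per kilobase of Itgb3, Itgb5, Itgb6 and Itgb8, vertical axis from 0) in the 9 libraries. Itgb5 is the main chain in every library, and the share of Itgb6 is above 2% in each KO library and in WT culture 2.

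Tumours were set against cultures within each line. Setting and batch are the same label, so growth in the animal, host cells and batch cannot be told apart. In WT, 3 of 8 members were called (65.7% of the 16793 genes tested were, 36.1% higher and 29.6% lower): Itgb4 at a log2 fold change of 3.08 (SE 0.23, adjusted p = 2.77e-06, edgeR), Itga5 at 1.21 (SE 0.20, adjusted p = 0.000374) and Itgb5 at 0.98 (SE 0.14, adjusted p = 0.000108), all higher. In KO, 4 of 8 were called (59.3% of all genes, 32.9% higher and 26.4% lower): Itgb4 at 2.78 (SE 0.23) and Itgb5 at 0.88 (SE 0.15) higher, and Itga3 at -0.43 (SE 0.15, adjusted p = 0.0282, edgeR) and Itgb3 at -0.73 (SE 0.25, adjusted p = 0.0274) lower. The calls of Itgb4 and Itgb5 in both lines and of Itga5 in WT were kept under all 16 alternatives. Those of Itga3 and Itgb3 in KO were not: with library totals in place of TMM scaling they were -0.0009 and -0.28 and not called. Itga5 in KO was at -0.49 (SE 0.22, adjusted p = 0.074, edgeR), not called, with values of -0.21 without KO tumour 1 and -0.83 without KO tumour 3 (adjusted p = 0.455 and 0.00954, edgeR), and -0.05 with library totals. It was also called with no count filter (adjusted p = 0.0393, edgeR).

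The scaling weighs on these values because the TMM factors were 0.789 to 0.893 in cultures and 1.07 to 1.203 in tumours. With library totals the median log2 fold change of all genes moved from 0.17 to 0.64 in WT and from 0.17 to 0.60 in KO, and the share of called genes that were higher in tumours from 54.9% to 72.7% and from 55.5% to 74.4%. The median of the 8 members was 0.09 in both lines under TMM.

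Laminin chain genes, the ligands of alpha 3 and alpha 6, changed in both directions. Of 11 chains, 7 passed the count filter in culture, with 2 higher and 2 lower in KO and a median log2 fold change of 0.39. In tumours 10 passed, 2 higher and 3 lower, with a median of -0.81. Of all genes tested, 16.2% were lower and 9.27% higher in KO cultures, and 10.9% and 8.78% in KO tumours. Lamb1, the beta 1 chain of basement membrane laminins, was lower in culture (177 and 120 against 82.9 and 58.4 CPM, log2 fold change -1.04, adjusted p = 0.00184, edgeR) and in tumours (156, 167 and 220 against 22.3 and 45.0 CPM, -2.36, adjusted p = 0.00478, edgeR). Lamc1, the common gamma chain, was lower in tumours (509, 496 and 460 against 207 and 281 CPM, -0.92, adjusted p = 0.00847, edgeR). Lamb2 was higher in KO cultures (0.76, adjusted p = 0.0126, edgeR) and lower in KO tumours (-0.92, adjusted p = 0.0243), calls that 2 cultures (WT culture 2, adjusted p = 0.0891; KO culture 1, 0.148) and 3 tumours (WT tumour 1, 0.0838; WT tumour 2, 0.0906; KO tumour 1, 0.106) each ended when left out. Lama5 was at 1153, 1099 and 964 CPM in WT and 436 and 825 in KO tumours (-0.70, adjusted p = 0.087, edgeR), not called.

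Lamb3, a chain of the epithelial laminin that is bound by alpha 3 and by alpha 6 with beta 4, was higher in KO in both settings. It was at 117 and 98.4 CPM in WT and 183 and 147 in KO cultures (0.64, adjusted p = 0.0112, edgeR), and at 47.0, 37.5 and 42.0 in WT and 235 and 83.2 in KO tumours (2.04, adjusted p = 0.0195, edgeR). Lama3 was rare in culture, with 58 counts in WT and 2 in KO, a ratio of 0.0318 (95% exact interval 0.00377 to 0.120, counting error only). In tumours Lama3 was at 9.68, 14.1 and 5.37 CPM in WT and 85.6 and 14.1 in KO (log2 fold change 2.4963, adjusted p = 0.059, edgeR), not called. This value was 0.58 without KO tumour 1 and 3.31 without KO tumour 3 (adjusted p = 0.504 and 0.00653, edgeR), and 4 of 13 alternatives called it. KO tumour 1 was the highest library for Lamb3 and Lama3, as it was for Itgb6. Without that library, Lamb3 was at 1.02 in tumours, still called. Without WT tumour 1, 2 or 3, Lamb3 stayed between 1.95 and 2.10, with an adjusted p of 0.0572 to 0.0746 (edgeR), which misses the threshold. In culture Lamb3 lost its call in 3 of 12 alternatives, among them those without WT culture 2 or KO culture 1. Its size there stayed between 0.53 and 0.75.

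Of 15 genes for fibronectin and other ligands of the RGD binding receptors, 9 passed the filter in culture. There 5 were lower and 1 higher in KO (median -0.55). In tumours 12 passed, with 8 lower and 2 higher (median -1.36). The 2 higher were Npnt and Edil3. Npnt was at 312, 285 and 337 CPM in WT and 390 and 430 in KO tumours. Edil3 was low, at 1.39, 1.53 and 3.37 CPM in WT and 7.73 and 6.89 in KO tumours. The shares of all genes tested were 16.2% lower and 9.27% higher in culture, and 10.9% and 8.78% in tumours. Fn1, fibronectin, was at 238 and 161 CPM in WT and 43.9 and 32.5 in KO cultures (-2.36, SE 0.20, adjusted p = 3.62e-06, edgeR). In tumours it was at 1271, 1472 and 1212 CPM in WT and 126 and 412 in KO (-2.24, SE 0.44, adjusted p = 0.0176, edgeR). The KO libraries were below every WT library of their setting. The tumour call was lost without WT tumour 1 (-2.27, adjusted p = 0.0532, edgeR) or 2 (-2.14, adjusted p = 0.0626). Spp1, osteopontin, an RGD ligand of alpha v, was at 3837 and 4325 CPM in WT and 1391 and 1173 in KO cultures (-1.66, adjusted p = 0.000101, edgeR). In tumours Spp1 had 3714, 4500 and 3631 CPM in WT and 1594 and 1776 in KO (-1.14, adjusted p = 0.00642, edgeR). Thbs1 (thrombospondin) and Ccn2 were lower in both settings as well, and Tnc, tenascin C, at 147, 117 and 281 CPM in WT and 10.2 and 29.0 in KO tumours, had too few counts in culture to test. Ccn1 was higher in KO cultures (0.62, adjusted p = 0.0125, edgeR) and lower in KO tumours (-1.58, adjusted p = 0.00799). Fibronectin and tenascin C are also made by fibroblasts, whose markers were lower in the KO tumours as given above, and that part was not tested.

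**Figure D4:**
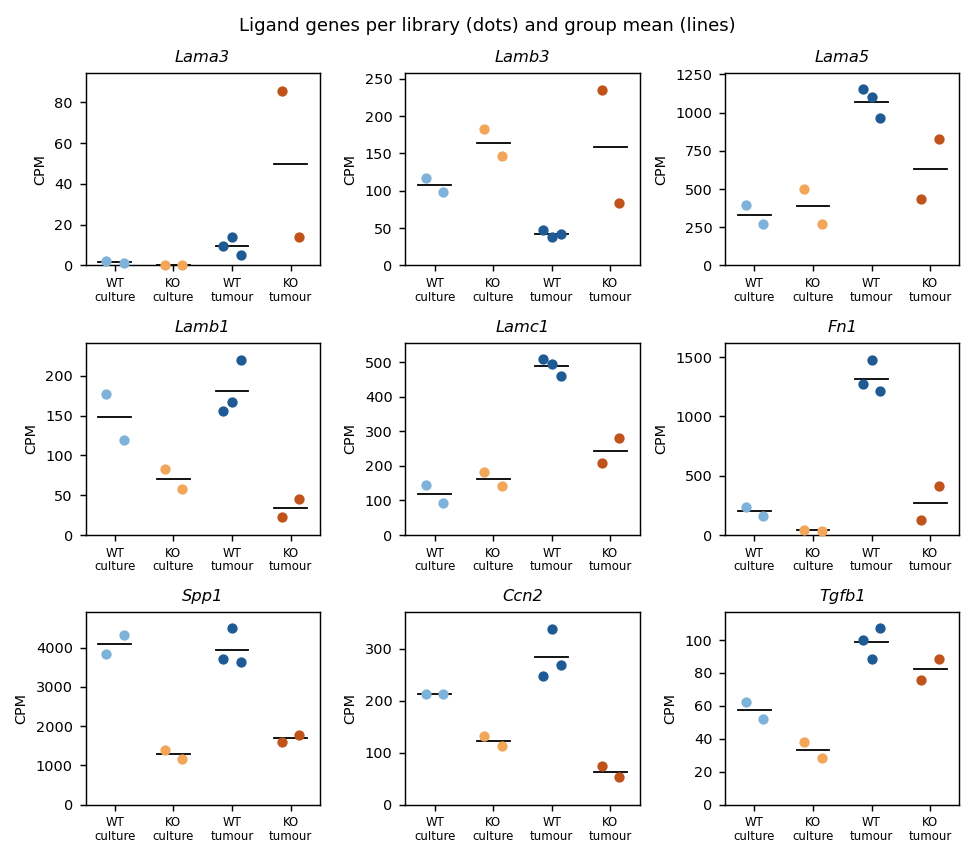
CPM (linear axes from 0) of 9 ligand genes, 1 dot per library, with the group mean as a line. Fn1, Spp1 and Lamb1 are lower in every KO library than in the WT libraries of the same setting, and Lamb3 is higher.

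Of 7 genes of latent TGF-beta and its activation by alpha v receptors, 3 of 5 tested were lower in KO cultures. In KO tumours 3 of 7 were lower, and none was higher in either setting. Of all genes tested, 16.2% were lower in KO cultures and 10.9% in KO tumours. Tgfb3 was lower in tumours, at 24.4, 38.8 and 44.2 CPM in WT and 10.5 and 8.24 in KO (-1.84, adjusted p = 0.0105, edgeR). Tgfb1 was at 62.2 and 52.2 CPM in WT and 37.98 and 28.5 in KO cultures (-0.76, adjusted p = 0.007, edgeR), and at -0.18 in tumours (adjusted p = 0.348), not called. Tgfb2 was low and lower in KO in both settings (-2.01, adjusted p = 0.00702, and -2.73, adjusted p = 0.00692, edgeR). Ltbp3, which binds latent TGF-beta, was lower in both (-0.61, adjusted p = 0.0375, and -0.65, adjusted p = 0.0377, edgeR). The culture call of Tgfb1 was lost without KO culture 2 and that of Tgfb2 without WT culture 1. Ltbp3 lost its culture call in 4 of 12 alternatives, among them those without WT culture 1 or KO culture 2. Its tumour call was lost in 5 of 13, including without either KO tumour, WT tumour 1 or WT tumour 2 (adjusted p = 0.13, edgeR).

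Of 11 hemidesmosome and laminin receptor partner genes, 3 of 9 tested were lower in KO cultures (Bsg, Cd82 and Cd9). Among all genes tested, 16.2% were lower in KO cultures, and 19.7% were called in tumours. Bsg was not called without WT culture 2 (adjusted p = 0.173, edgeR), KO culture 1 (0.156) or KO culture 2 (0.124) or in the joint fit of 9 libraries (0.144), and Cd82 not with any 1 culture left out (0.0564 to 0.109). In this list Cd9 alone was called in tumours, higher at 0.64 (adjusted p = 0.0113, edgeR). The tumour call of Cd9 was lost in 3 of 13 alternatives, among them those without WT tumour 1 (adjusted p = 0.0511, edgeR) or 2 (0.0691). Its culture call was lost without either KO culture or without WT culture 2. Plec, plectin, the intracellular partner of beta 4, was called in neither setting (-0.22, adjusted p = 0.518, and -0.34, adjusted p = 0.0836, edgeR). Cd151, a tetraspanin bound to alpha 3 and alpha 6, was at 268 and 300 CPM in WT and 267 and 328 in KO cultures, and at 123, 121 and 128 in WT and 171 and 129 in KO tumours, called in neither.

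Of 14 proteins that bind integrin tails, 11 were not called in culture and 12 in tumours, among them Tln1, the main talin. The 3 called in culture and 2 in tumours stood beside 25.5% and 19.7% of all genes tested. Tln2, the other talin, was lower in KO tumours, at 29.4, 31.0 and 43.1 CPM in WT and 5.86 and 14.6 in KO (-1.68, adjusted p = 0.0235, edgeR), a call that each WT tumour ended when left out (0.0572 to 0.069). Fermt2, kindlin 2, had 200 counts in WT and 2 in KO cultures, a ratio of 0.00923 (95% exact interval 0.00111 to 0.0338, counting error only). In tumours it was at 31.7, 34.8 and 28.7 CPM in WT and 4.99 and 7.26 in KO (-2.29, adjusted p = 0.00198, edgeR). Fermt1, the epithelial kindlin, was higher in KO cultures, at 173 and 139 CPM in WT and 288 and 245 in KO (0.80, adjusted p = 0.00322, edgeR), and was at -0.10 in tumours (adjusted p = 0.543), not called. Dab2 had 145 counts in WT and 1 in KO cultures, a ratio of 0.00637 (95% exact interval 0.00016 to 0.0360). Of the 18 other integrin chains, 6 of 10 tested were called in culture and 3 of 16 in tumours, beside the 25.5% and 19.7% of all genes. The list includes Itga2, the targeted gene, which is among the calls in both settings. It also includes Itgb1, so the 3 called in tumours were Itga2 and Itgb1, both lower, and Itga7. Itga7, another laminin receptor chain, was higher in KO in both settings. It was at 6.20 and 3.69 CPM in WT and 14.0 and 14.9 in KO cultures (1.58, adjusted p = 0.000534, edgeR). The tumours had 2.95, 3.83 and 3.99 CPM in WT and 7.24 and 9.72 in KO (1.32, adjusted p = 0.0206, edgeR). That tumour call was lost in 3 of 13 alternatives, among them those without WT tumour 1 (adjusted p = 0.0984, edgeR) or 2 (0.0838).

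The genes whose profiles over the 9 libraries lay closest to each member were found among 10513 genes, by the root mean square difference of centred log2 CPM. For Itga3 they were Sgk1 (0.12), Nudcd3 and Cdt1, and for Itgb5 Dhx38 (0.07), Tnip2 and Dnajc27. Those of Itgb4 were Muc4 (0.30), Fmnl1 and Tns2, and those of Itga5 Nav3 (0.25), Nptxr and Cdr2l. For Itgb6, Smpdl3a was closest at 0.29, followed by Btg2 and Mllt3. Itga6, Itgav and Itgb3 varied less over the libraries, with an own SD of 0.14, 0.15 and 0.41 on the log2 scale beside 1.67 for Itgb4, and had Ilkap, Drg2 and Mcm8 as their closest genes. Itgb8 had too few counts for such a ranking.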

How the data were processed

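Bulk poly(A) RNA was sequenced in 9 mouse libraries, in 4 groups taken from the labels. Per the labels' protocols, ERCC control RNA was added and duplicates were removed by unique molecular identifiers. Per the submitters' processing notes, the build was GRCm38, and featureCounts, DESeq2, Subread 1.5.2, STAR 2.5.2b and fastp 0.23.1 were used in unnamed roles. Strand setting and annotation release were not given in sources used here. The 2 deposited tables, for cultures and for tumours, give the raw counts of each Ensembl gene that the authors made. The deposited normalized and rlog tables were not used. The labels number the KO tumours 1 and 2, while the count columns carry 1 and 3, so the column numbered 3 (KO tumour 3) was assigned to its group only.

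In each comparison filterByExpr selected genes (minimum count 10, minimum total 15), which TMM scaled. The quasi-likelihood test of edgeR 4.0.16 in R 4.3.3 was run, with a threshold of 0.05 on the adjusted p (Benjamini-Hochberg, all tested genes). KO was tested within culture and within tumours. The difference of these effects, and tumour against culture, were taken from 1 fit of all libraries. Each SE was derived as log2 fold change over root F. Printed CPM were scaled by the library total, and levels per kilobase divide them by the summed exon length (GENCODE M21). The scripts were tested on simulated data. Replicates are called biological by the labels, with no separate mice named, so p-values measure the spread between these samples. Shares and ratios were compared by exact permutation tests.

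The members and gene lists were chosen with earlier results of these data known. Named were all members, Itga2 and Itgb1, up to 4 genes per list and comparison with the smallest p, list genes of 10 CPM or more in culture, and the 3 genes closest to each member. Alternatives were RLE scaling, library totals, no filter, a CPM filter of 1, DESeq2 1.42.0, limma-voom (limma 3.58.1), 1 fit of all libraries, leaving each library out, blocking on the replicate number, and other gene lengths.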

Additional observations from a re-analysis of the deposited data

Results flagged for a closer look

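The effect of the knockout differed between tumours and culture by the test of the difference (edgeR, adjusted p below 0.05) in 11 of the 76 members and list genes tested, beside 5.69% of all 16793 genes. Among the members this held for Itga5 alone, at -1.69 on the log2 scale (lower in 2 of 2 KO tumours than in 3 of 3 WT tumours). The difference was negative, so that KO stood lower in tumours relative to culture, for Lamb2 (-1.70), Lamc1 (-1.42), Ccn1 (-2.23), Ccn2 (-1.31), Tgfb3 (-2.15) and Fermt1 (-0.92). It was positive for Cd9 (1.18). It was also positive for Lama3 (7.27), Fermt2 (4.27) and Dab2 (6.04), which had only 2, 2 and 1 counts in the KO cultures, so these fitted sizes depend on the prior count. Of 16 alternatives each, Ccn1 and Fermt2 kept the call in all, and it was lost in 1 for Cd9, 2 for Itga5, Lamb2 and Lamc1, 3 for Tgfb3 and Dab2, 4 for Ccn2 and 5 for Lama3 and Fermt1.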

How the results depend on the processing

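Of the members' fold changes under the alternatives, 516 kept direction and side of the threshold, 29 lost the call, 13 gained it and 26 changed sign; the cause was not tested. In KO against WT in culture, 3461 genes were called and 7587 with the replicate block (4 members), 2130 to 2985 with a library left out (0 to 3 members), and 1 member in 1 fit of all libraries. In tumours, 3206 genes became 1428 with the replicate block by column number, and 1171 to 4143 with a library left out (2 to 5 members). The numbers pair samples weakly in culture (correlation 0.140) and not in tumours (-0.003 and 0.034), and no label ties them. With the block Itgb5 and Itgb6 were called in culture, and Itgb5 was not in tumours. The difference of the effects had 955 calls, 1875 without a filter, 1625 with DESeq2, and 288 to 1651 with a library left out (0 to 2 members). Tumour against culture called 5 members in WT with library totals, and in KO 2 in a fit of that line alone and 2 to 5 with a library left out.

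Signs turned for values near 0. In KO against WT in culture Itgb3 was -0.0197 with library totals, -0.0011 with the CPM filter and -0.15 to 0.19 with a library left out, Itgav 0.0027 in 1 fit and -0.16 to 0.0788, Itga6 -0.0376 to 0.16, Lama5 -0.20 to 0.58 and Plec -0.58 to 0.09. The difference of the effects ran from -0.10 to 0.23 for Itga6 and -0.20 to 0.0192 for Itgb5. In tumour against culture, library totals gave 0.24 for Itgav and 0.24 for Itgb3, 0.34 for Itgb6, 0.28 for Itga2 and 0.22 for Itgb1 in WT, and 0.41 for Itgav in KO, where RLE gave 0.0408, DESeq2 0.0407, the CPM filter 0.0199 and a fit of KO alone 0.0319. With a library left out, Itga3 ran from -0.10 to 0.19 and Itgb6 from -0.58 to 0.41 in WT, and Itgav from -0.15 to 0.10 and Itgb6 from -0.14 to 0.97 in KO.

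For KO minus WT, the share of Itgb6 moved from 1.87 points to 2.57 (longest transcript) or 2.84 (no length) in culture and from 2.81 to 4.95 (no length) in tumours, and that of Itgb8 in culture to -0.171. With a library left out, tumour shares differed by -4.10 to 3.57 (Itgb3), -4.80 to -0.311 (Itgb5) and 1.25 to 4.37 (Itgb6) points, Itgb8 in culture by -0.117 to -0.0144, and the tumour log2 ratios by -1.60 to -0.69 (Itgb4 to Itga6) and -1.72 to -0.95 (Itga5 to Itgb1). Depth limits Itgb8, and groups of 2 and 3 limit every test.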
